A study of Mus musculus with 8 samples.

Results

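Immediate early genes are the 10 genes Fos, Fosb, Jun, Junb, Atf3, Egr1, Egr2, Egr3, Nr4a1 and Ier2, taken by symbol from the 49315 genes counted in gastrocnemius, the large calf muscle of the mouse. All 10 were found, and all 10 passed the filter on low counts that left 19571 genes for testing. The muscle came from C57BL/6 mice of 4 ages, 3, 12, 24 and 30 months, with 2 libraries at each age and 8 in all. The labels name no treatment, genotype change or sex. They also leave unsaid whether each library is a different mouse, so a p-value here reflects library-to-library spread, which may be technical. The series concerns the transcriptome of aged gastrocnemius, and the question put to these genes was whether their level or their spread between libraries differed with age.

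Immediate early genes are transcribed within minutes of a stimulus, without new protein synthesis, when kinases act on factors such as SRF and CREB that already sit at their promoters. Most of their products are transcription factors that pass the signal on to slower genes. In muscle they are known to respond to contraction, stretch and injury.

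The sequences just upstream of 4 members are shown: Junb, Nr4a1 and Fos, on which the results turn, and Fosb, which had its highest library in common with Fos. They are the 250 bases before the RefSeq start (GRCm38.p6), printed on the strand of the gene. Capitals mark matches on either strand to TGACG, the core of the cAMP response element (CRE). They also mark GCGNGGGCG, to which EGR factors bind, and the TATA box motif, searched as TATAAA.
Fos, chr12:85473640-85473889, plus strand: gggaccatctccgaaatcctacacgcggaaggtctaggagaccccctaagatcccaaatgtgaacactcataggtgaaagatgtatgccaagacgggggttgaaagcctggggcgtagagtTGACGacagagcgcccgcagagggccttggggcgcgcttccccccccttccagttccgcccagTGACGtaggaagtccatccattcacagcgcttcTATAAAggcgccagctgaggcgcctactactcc
Fosb, chr7:19310046-19310295, minus strand: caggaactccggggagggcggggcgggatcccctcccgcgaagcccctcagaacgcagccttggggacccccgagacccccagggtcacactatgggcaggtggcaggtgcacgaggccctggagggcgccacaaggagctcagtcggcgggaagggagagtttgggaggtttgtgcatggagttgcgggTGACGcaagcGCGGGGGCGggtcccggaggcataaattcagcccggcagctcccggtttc
Junb, chr8:84978749-84978998, minus strand: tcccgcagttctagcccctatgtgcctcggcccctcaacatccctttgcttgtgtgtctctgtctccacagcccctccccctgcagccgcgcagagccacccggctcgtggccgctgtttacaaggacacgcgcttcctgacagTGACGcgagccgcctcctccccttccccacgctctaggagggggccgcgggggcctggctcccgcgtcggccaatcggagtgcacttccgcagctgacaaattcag
Nr4a1, chr15:101266596-101266845, plus strand: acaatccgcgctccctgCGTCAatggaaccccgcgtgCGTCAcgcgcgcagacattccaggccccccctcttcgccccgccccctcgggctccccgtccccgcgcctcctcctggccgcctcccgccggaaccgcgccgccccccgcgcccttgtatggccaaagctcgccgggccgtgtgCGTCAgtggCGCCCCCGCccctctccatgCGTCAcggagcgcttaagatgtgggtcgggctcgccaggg

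RefSeq windows were matched for 7 of the 10 members, Fos, Fosb, Jun, Junb, Atf3, Egr2 and Nr4a1. TGACG stood in at least 1 window of 6 of these 7 genes, and in 17.8% of all 32851 promoter windows of the same length. Nr4a1 held 4 matches to TGACG, the most of the printed windows, and Fos held 2. GCGNGGGCG was found in 2 members, Fosb and Nr4a1, against 4.70% of all windows, and TATAAA in 1, Fos, against 12.4%. The CArG box bound by SRF matched in Egr2 alone, which has several windows, against 1.47% of all windows. The full CRE, TGACGTCA, and the AP-1 site, TGANTCA, matched in none of the 7 members and in 1.55% and 6.75% of all windows. Such matches describe the letters of these windows and are not evidence of binding.

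Library totals were 42404254 to 59245029 counts, and the limit set by a count of 0 (3 counts of the total) was 0.0506 to 0.0707 counts per 1000000 (CPM), which covers counting error only. CPM values are scaled by TMM. Markers of skeletal muscle such as Acta1, Ckm and Myh4 were abundant in every library. The libraries fell into 2 sets by the summed level of 9 kidney genes, which was 0.662 to 0.721 CPM in 3 libraries and 3.70 to 51.0 CPM in the other 5. The 5 comprise the 3 month pair, the first replicates of 12 and 24 months and the second of 30 months. A score of circadian clock genes, output genes such as Dbp minus Arntl and its partners on the log2 scale, parted in the same way, at 2.98 to 4.02 in the 3 libraries and -0.52 to 0.90 in the 5. Within the 5, the 3 month pair had kidney sums of 51.0 and 16.6 CPM, against 5.53, 4.19 and 3.70 CPM at 12, 24 and 30 months. Their clock scores were -0.43 and -0.52, against 0.33, 0.90 and 0.41. No library of 3 months lies in the set without kidney transcripts. Some of the comparisons with 3 months, not all, are therefore also given with the library set in the model. That term does not cover the differences within the 5, which part 3 months from the later ages. In bulk tissue, fewer cells of a type and less RNA per cell cannot be told apart.

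The 10 genes covered a wide range of levels. Per kilobase of gene length, Jun had the highest mean over 8 libraries at 29.5 CPM per kilobase, followed by Nr4a1 at 29.4, Junb at 5.91, Fos at 3.75, Atf3 at 2.69, Ier2 at 2.54, Egr1 at 1.00, Egr2 at 0.286, Egr3 at 0.142 and Fosb at 0.0638. The ranges over libraries of neighbours in this order overlapped, except between Nr4a1, whose lowest library was at 13.7, and Junb, whose highest was at 8.91. Jun and Nr4a1 thus stood near the 95th percentile of the tested genes per length, at 94.7 each, and Fosb at percentile 3.68. The plot of levels by library shows every value in CPM.

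**Figure D1:**
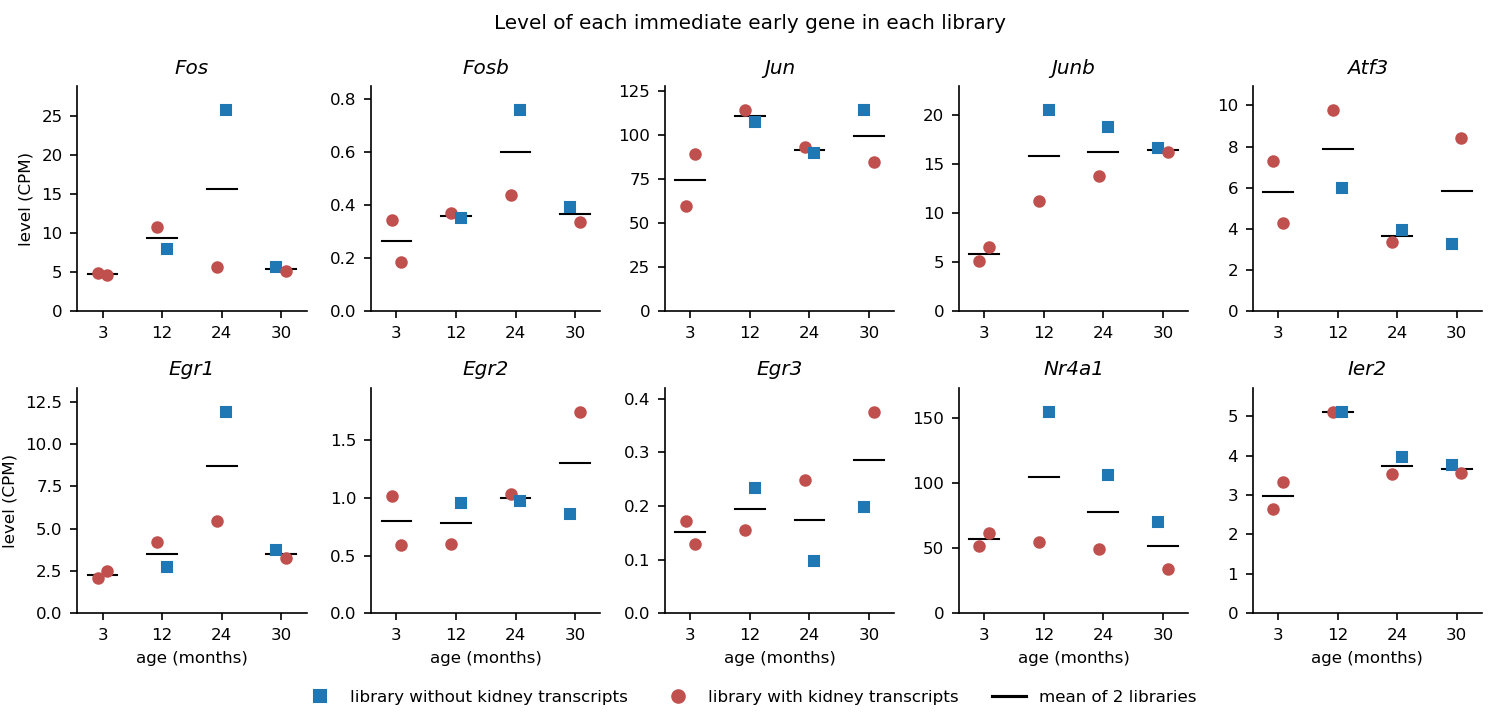
Level of each of the 10 immediate early genes in each of the 8 libraries (vertical axis, CPM, starting at 0) by age in months, with black bars for the mean of the 2 libraries of an age. Junb lies at 5.07 and 6.60 CPM at 3 months and at 11.2 to 20.5 CPM in the 6 later libraries, Nr4a1 is highest in the library without kidney transcripts (blue squares) at each later age, and Fos and Egr1 have 1 high library at 24 months.

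In edgeR's quasi-likelihood test 0 of 10 members had an adjusted p under 0.05, be it in the 6 comparisons between ages or across the 4 ages. Of all tested genes 0.148% were called between 30 and 3 months, 0.102% between 24 and 3 months, 0.0409% between 12 and 3 months, 0.00511% between 30 and 12 months and 0.0613% across the ages. Between 30 and 24 months and between 24 and 12 months 0% were called. At an unadjusted p under 0.05 there were 1, 4 and 3 members for 30, 24 and 12 months against 3 months, and 3 across the ages. There were 1, 2 and 3 for 30 against 12, 30 against 24 and 24 against 12 months. limma-voom called 0 members in each of the 7 tests. The lowest adjusted p of any member was 0.132, for Junb between 30 and 3 months.

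Values at the later ages mostly lay above those at 3 months. In each of the 3 comparisons with 3 months, which share those 2 libraries, 9 of 10 members had a positive log2 fold change. Their median was 0.45 at 30 months, 0.39 at 24 months and 0.59 at 12 months, beside 0.01, 0.01 and 0.00 for all tested genes, of which 51.4%, 51.9% and 50.5% were positive. The median at 24 months was 0.66 when replicate 1 of 24 months was left out and 0.61 when replicate 2 of 3 months was. Both libraries of the later age lay above both of 3 months for 5 members at 30 months, 6 at 24 months and 6 at 12 months. The same held for 21.1%, 20.0% and 19.3% of all tested genes. For 4 members, Fos, Junb, Egr1 and Ier2, all 6 later libraries lay above both of 3 months, as they did for 6.86% of all tested genes. Among the later ages the medians were -0.07 for 30 against 12 months, -0.00 for 30 against 24 and -0.07 for 24 against 12, with 5 of 10 members positive in each. These medians turned with single libraries, that for 24 against 12 months being 0.53 without replicate 2 and -0.29 without replicate 1 of 12 months, 0.13 without replicate 1 and -0.23 without replicate 2 of 24 months. For 30 against 12 months the median was 0.03 when replicate 2 of 30 months was left out and -0.13 when replicate 2 of 12 months was, and for 30 against 24 months it was 0.08 without replicate 2 and -0.15 without replicate 1 of 24 months, -0.15 without replicate 2 and -0.09 without replicate 1 of 30 months.

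**Figure D2:**
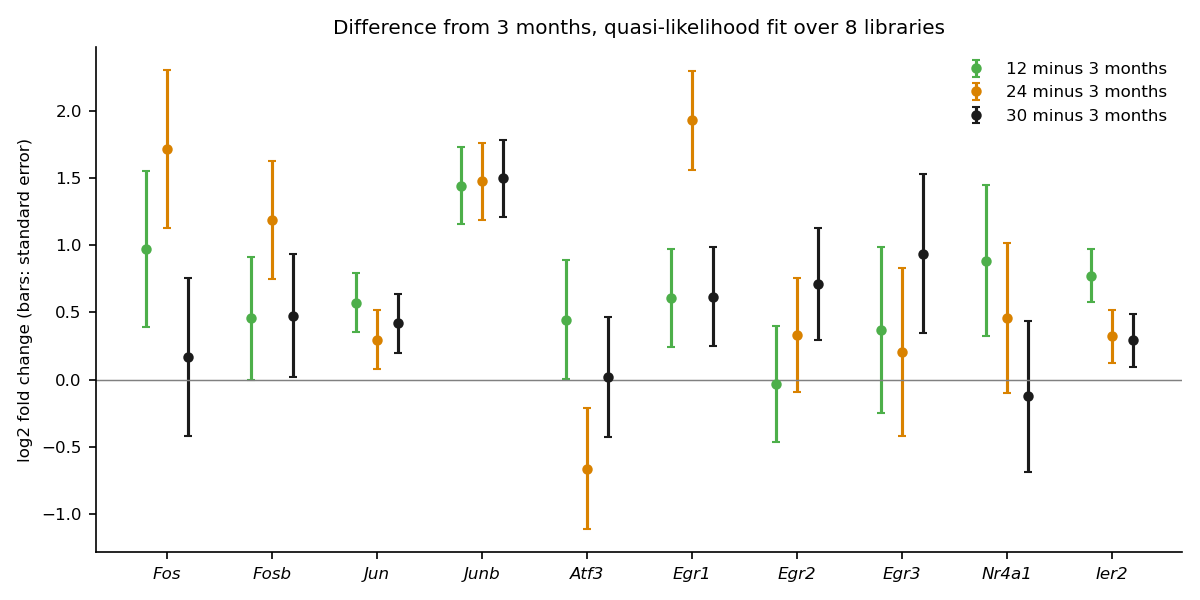
Log2 fold change against 3 months (vertical axis) of each member at 12, 24 and 30 months, from the quasi-likelihood fit over 8 libraries, with bars for the standard error. The 3 values of Junb lie close together at 1.44, 1.48 and 1.50, those of Fos and Egr1 are largest at 24 months, and the bars of Fos, Nr4a1 and Egr3 are wide.

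Junb encodes a JUN family protein that pairs with FOS proteins in the AP-1 factor and is known in mouse muscle for helping to maintain fibre size. It stood at chromosome 8, 84974484 to 84978718 (ENSMUSG00000052837, GRCm38). Its level was 5.07 and 6.60 CPM at 3 months, then 11.2 and 20.5 at 12, 13.7 and 18.8 at 24 and 16.7 and 16.3 at 30 months. The 3 month libraries were the lowest of the 8, and no later library overlapped them. The mean was 16.5 ± 0.27 CPM at 30 months, against 5.84 ± 1.1 CPM at 3 months (SD, n = 2 each), a log2 fold change of 1.50 (SE 0.29, 95% interval 0.85 to 2.14, quasi-likelihood adjusted p = 0.132). Against 3 months it was 1.48 at 24 months (SE 0.29, quasi-likelihood adjusted p = 0.210) and 1.44 at 12 months (SE 0.29, quasi-likelihood adjusted p = 0.334). Between the later ages the differences were at most 0.05 on the log2 scale, with an interval of -0.57 to 0.68 for 30 against 12 months.

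Some other fits put Junb past the threshold with much the same size of difference, and others did not. For 30 against 3 months the quasi-likelihood adjusted p was 0.0571 with library totals alone, 0.0897 with a replicate block and 0.135 with RLE size factors. It was 0.138 without mitochondrial genes and 0.152 with a filter of 1 CPM in 2 libraries. The limma-voom adjusted p was 0.176. DESeq2 gave log2 fold changes of 1.49, 1.47 and 1.44 at 30, 24 and 12 months, with DESeq2 adjusted p-values of 0.000128, 0.000276 and 0.000801. When the model held the library set it was 1.28 at 30 months (quasi-likelihood adjusted p = 0.0150), 1.23 at 24 months (0.0464) and 1.17 at 12 months (0.108). Within the set with kidney transcripts, the single library of each later age lay above the mean of both 3 month libraries. In log2 CPM the difference was 0.95 at 12 months, 1.24 at 24 months and 1.49 at 30 months. In that set the 3 month libraries also had the highest kidney sums and the lowest clock scores, whose part in these values was not tested. In the quasi-likelihood fit without the set, the log2 fold change for 30 against 3 months was 1.32 (adjusted p = 0.785) when replicate 1 of 3 months was left out and 1.70 (adjusted p = 0.490) when replicate 2 was, and that for 12 against 3 months was 0.93 without replicate 2 of 12 months. In the annotation the 3′ ends of Junb and Prdx2 share 351 bases on opposite strands, and whether counting used strand is not stated in the sources used here. Prdx2, which encodes a peroxiredoxin, was at 78.4 and 103.9 CPM at 30 months, against 83.5 and 77.1 CPM at 3 months, with overlapping groups.

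Summed markers of fibroblasts were at 660 and 790 CPM at 30 months, against 1252 and 1354 CPM at 3 months, and those of macrophages at 164 and 296 CPM, against 151 and 168 CPM. Most of the fibroblast difference lay in 2 collagen genes, Col1a1 at 126 and 138 CPM at 30 months, against 447 and 505 CPM at 3 months, and Col3a1 at 117 and 201 CPM, against 300.4 and 357 CPM. Dcn was at 316 and 318 CPM at 30 months, against 372 and 365 CPM at 3 months. Pdgfra was at 58.0 and 64.5 CPM, against 75.1 and 79.9 CPM, also with no overlap, and Lum and Ly6a overlapped. None of the 6 fibroblast and 8 macrophage markers was called in any pair of ages, and their part in the Junb values was not tested.

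Counts of members called by the other fits are read against the same share of all genes. DESeq2 called 1 member between 30 and 3 months, Junb, with 1.14% of all genes, and 2 between 24 and 3 months, Junb and Egr1, with 0.718%. It called 1 between 12 and 3 months, Junb, with 0.332%, and 2 across the ages, Junb and Egr1, with 1.18%. The fit with the library set called 2 members between 30 and 3 months, Junb and Nr4a1, with 2.13% of all genes, and 1 between 24 and 3 months, Junb, with 0.363%. It called 0 between 12 and 3 months with 0.148%, 1 between 30 and 12 months, Nr4a1, with 0.281%, and 2 across the ages, Junb and Nr4a1, with 1.04%.

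Jun, the founding JUN family gene, was among the most abundant members. It was at 59.7 and 89.5 CPM at 3 months, then 114.3 and 107.5 at 12, 93.3 and 90.0 at 24 and 114.1 and 85.0 at 30 months. The groups of 12 and 24 months lay above 3 months, though at 24 months by a narrow margin, and 30 months overlapped it. Its log2 fold change for 12 against 3 months was 0.57 (SE 0.22, quasi-likelihood adjusted p = 0.898), and it was 0.31 without replicate 1 and 0.90 without replicate 2 of 3 months. Jun shares 689 bases with the antisense gene Junos, which was at 4.23 to 6.60 CPM in the 8 libraries.

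Fos, the best known partner of JUN, differed most between 2 libraries of 1 age. At chromosome 12, 85473890 to 85477273 (ENSMUSG00000021250, GRCm38), it was at 4.90 and 4.67 CPM at 3 months, then 10.7 and 7.99 at 12, 5.67 and 25.8 at 24 and 5.64 and 5.11 at 30 months. Replicate 2 of 24 months stood apart at 5.39 times the mean of 3 months, while replicate 1 of that age was at 1.18 times. The mean of 24 months was 15.7 ± 14 CPM and that of 3 months 4.79 ± 0.16 CPM (SD, n = 2), a log2 fold change of 1.72 (SE 0.59, quasi-likelihood adjusted p = 0.572). It was 0.24 without replicate 2 of 24 months and 2.43 without replicate 1, where the remaining library is assumed to vary like the other ages (quasi-likelihood adjusted p = 0.992 and 0.00799). Between 30 and 24 months the log2 fold change of -1.55 likewise became -0.08 without replicate 2 of 24 months and -2.26 without replicate 1 (quasi-likelihood adjusted p = 1 and 0.0330). For 30 against 3 months it was 0.17, with an interval of -1.19 to 1.53. With the library set as a term this became -0.13. The value for 24 against 3 months was then 1.24 (quasi-likelihood adjusted p = 0.776).

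Fosb, a FOS family gene known for its stable truncated form in brain, was low throughout. Its counts were 16 and 10 at 3 months, then 19 and 18 at 12, 23 and 39 at 24 and 18 and 18 at 30 months. The highest was again replicate 2 of 24 months, at 0.760 CPM, against 0.185 to 0.440 CPM in the other 7 libraries. At these counts, counting error alone gives an SD of 0.38 to 0.58 on the log2 scale for the difference of 2 libraries, and the log2 fold change for 24 against 3 months of 1.19 (SE 0.44, quasi-likelihood adjusted p = 0.592) did not pass. It was 0.73 when replicate 2 of 24 months was left out and 0.79 when replicate 2 of 3 months was.

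Egr1, a zinc finger factor induced by growth factors and stretch, followed Fos in its highest library. It was at 2.09 and 2.47 CPM at 3 months, then 4.22 and 2.73 at 12, 5.48 and 11.9 at 24 and 3.73 and 3.27 at 30 months. Both libraries of 24 months lay above the other 6. The log2 fold change for 24 against 3 months was 1.93 (SE 0.37, quasi-likelihood adjusted p = 0.203), and DESeq2 called it with an adjusted p of 5.32e-05. It was 1.25 without replicate 2 of 24 months (quasi-likelihood adjusted p = 0.787) and 2.38 without replicate 1 (0.0359), and 1.75 with the library set as a term (0.194). Against 24 months, 30 months was at -1.31 (SE 0.36, quasi-likelihood adjusted p = 0.998), and was at -0.65 without replicate 2 of 24 months (adjusted p = 1 in the same test).

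Egr2, known for directing myelination by Schwann cells, and Egr3, known in mice for muscle spindle development, did not follow Egr1. Egr2 was at 1.01 and 0.593 CPM at 3 months, then 0.604 and 0.955 at 12, 1.03 and 0.974 at 24 and 0.856 and 1.75 at 30 months. Egr3 had 8 and 7 counts at 3 months, then 8 and 12 at 12, 13 and 5 at 24 and 9 and 20 at 30 months. Both were highest in replicate 2 of 30 months, and no comparison of either gene reached an unadjusted p of 0.05. For 30 against 3 months the log2 fold change of Egr2 was 0.71 (SE 0.42) and that of Egr3 0.94 (SE 0.59). Egr2 was at 0.10 without replicate 2 and 1.13 without replicate 1 of 30 months. Leaving out replicate 1 of 3 months put it at 1.14, and leaving out replicate 2 at 0.37. Egr3 was at 0.39 without replicate 2 of 30 months. Summed Schwann cell markers were also highest in replicate 2 of 30 months, at 113.9 CPM, against 32.1 to 92.6 CPM in the other 7 libraries, and summed macrophage markers too, at 296 CPM against 104 to 175 CPM. The same library was highest in summed markers of endothelium, at 253 CPM against 186 to 232 CPM, and of smooth muscle, at 392 CPM against 263 to 370 CPM. It was lowest in those of skeletal muscle, at 221426 CPM against 247864 to 377797 CPM. Sums for fibroblasts, neutrophils, satellite cells, red blood cells and adipocytes were highest in other libraries. No marker of these lists was at 0 in all libraries, and their part in the values of Egr2 and Egr3 was not tested.

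Atf3, a stress-induced factor of the CREB and ATF family that can pair with JUN proteins, varied widely within most ages. It was at 7.30 and 4.30 CPM at 3 months, then 9.77 and 5.98 at 12, 3.37 and 3.93 at 24 and 3.27 and 8.42 at 30 months. At 3, 12 and 30 months 1 library stood well above the other, and the 2 libraries of 24 months were both low. The log2 fold change for 24 against 12 months was -1.11 (SE 0.45, quasi-likelihood adjusted p = 0.994), with no overlap of the groups, and -0.72 without replicate 1 of 12 months. For 30 against 3 months it was 0.02, and it was -0.82 without replicate 2 of 30 months.

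Ier2, which encodes a small nuclear protein, was the most even member. It was at 2.63 and 3.34 CPM at 3 months, then 5.10 and 5.11 at 12, 3.52 and 3.95 at 24 and 3.76 and 3.57 at 30 months. Both libraries of 12 months lay above the other 6. Its log2 fold change was 0.77 for 12 against 3 months (SE 0.20, quasi-likelihood adjusted p = 0.596), -0.48 for 30 against 12 months (SE 0.20, 0.902) and -0.45 for 24 against 12 months (SE 0.19, 0.994).

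Nr4a1 encodes an orphan nuclear receptor that in muscle is known for its response to contraction and beta-adrenergic signals and for its part in glucose use. At chromosome 15, 101266846 to 101274792 (ENSMUSG00000023034, GRCm38), it was at 51.3 and 61.8 CPM at 3 months, then 54.5 and 154.5 at 12, 49.1 and 106.2 at 24 and 69.8 and 33.9 at 30 months. Its levels parted by the library set. They were at 69.8 to 154.5 CPM in the 3 libraries lacking kidney transcripts, against 33.9 to 61.8 CPM in the 5 that had them. Within each set they also fell from 12 to 24 to 30 months, with 1 library at each of these ages. The library without kidney transcripts exceeded the other library of its age by 1.50 at 12 months, 1.11 at 24 months and 1.04 at 30 months in log2 CPM, and the median of these 3 differences was at percentile 99.5 of the tested genes. Nr4a1 and the clock score were thus higher, and the kidney level lower, in the same 3 libraries. Within the other 5, the library lowest in Nr4a1, replicate 2 of 30 months, also had the lowest kidney sum, at 3.70 CPM. The part of the clock score or the kidney level in the Nr4a1 values was not tested.

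Without the set in the fit, Nr4a1 had a log2 fold change of -0.13 for 30 against 3 months (SE 0.56, interval -1.43 to 1.17) and -1.01 for 30 against 12 months (SE 0.56, quasi-likelihood adjusted p = 0.999). With the set as a term these were -0.83 (SE 0.17, quasi-likelihood adjusted p = 0.0286) and -0.92 (SE 0.15, quasi-likelihood adjusted p = 0.0414). Over 12, 24 and 30 months alone, where each set holds 1 library of each age, the second was -0.92 with an adjusted p of 0.0508 in the same test. In the set without kidney transcripts Nr4a1 was at 69.8 CPM at 30 months, against 154.5 CPM at 12 months, and in the other set at 33.9 CPM at 30 months, against 54.5 CPM at 12 months. For 30 against 3 months the value turned to 0.31 without replicate 2 and to -0.74 without replicate 1 of 30 months in the fit without the set.

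**Figure D3:**
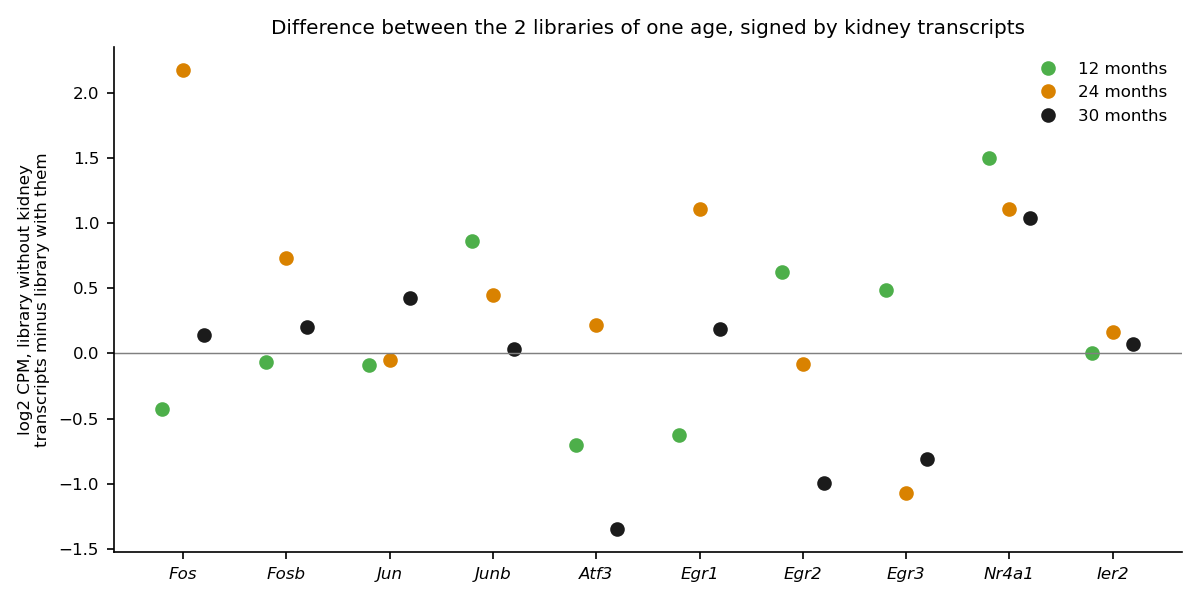
Difference in log2 CPM between the library without and the library with kidney transcripts of the same age (vertical axis) for each member at 12, 24 and 30 months, 1 point per age. The 3 points of Nr4a1 lie at 1.04 to 1.50, those of Junb at 0.03 to 0.87, and those of Fos run from -0.43 to 2.18.

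Of the 10 members, 3 had a higher level without kidney transcripts at all 3 later ages, Junb, Nr4a1 and Ier2, and 0 a lower level at all 3. Among all tested genes these shares were 21.2% and 22.2%. For Ier2 the differences were 0.00, 0.16 and 0.07 in log2 CPM, so their sign carries little. Fos, Fosb and Egr1 had their largest difference at 24 months, at 2.18, 0.74 and 1.11, and Atf3 at 30 months, at -1.35.

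As a group the members differed more between libraries of an age than most genes did. The median over the 4 ages of the difference between the 2 libraries was 0.45 in log2 CPM for the middle member and 0.27 for the middle tested gene, and 8 of 10 members lay above the 0.27 of all genes. At 3 months the middle member differed by 0.36 and the middle tested gene by 0.20, and at 12 months by 0.55 and 0.26. At 24 months the middle member differed by 0.59 and the middle tested gene by 0.31, and at 30 months by 0.31 and 0.27. Both libraries of 3 months lie in the set with kidney transcripts, whereas each later pair spans both sets. A difference in spread between 3 months and the later ages therefore cannot be told apart from the library set. Nr4a1 had a median difference of 1.08, at percentile 98.2 of the tested genes, Atf3 one of 0.73 at percentile 92.1 and Ier2 one of 0.12 at percentile 14.5. Fos had a median difference of 0.28, at percentile 52.4, but a largest one of 2.18, at percentile 98.7. For Nr4a1, Fos and Atf3 counting error alone gives an SD of at most 0.15 for such a difference. For Egr2 it gives 0.28 to 0.33, for Fosb 0.38 to 0.58 and for Egr3 0.58 to 0.76. The tested genes set beside the members were of all levels.

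**Figure D4:**
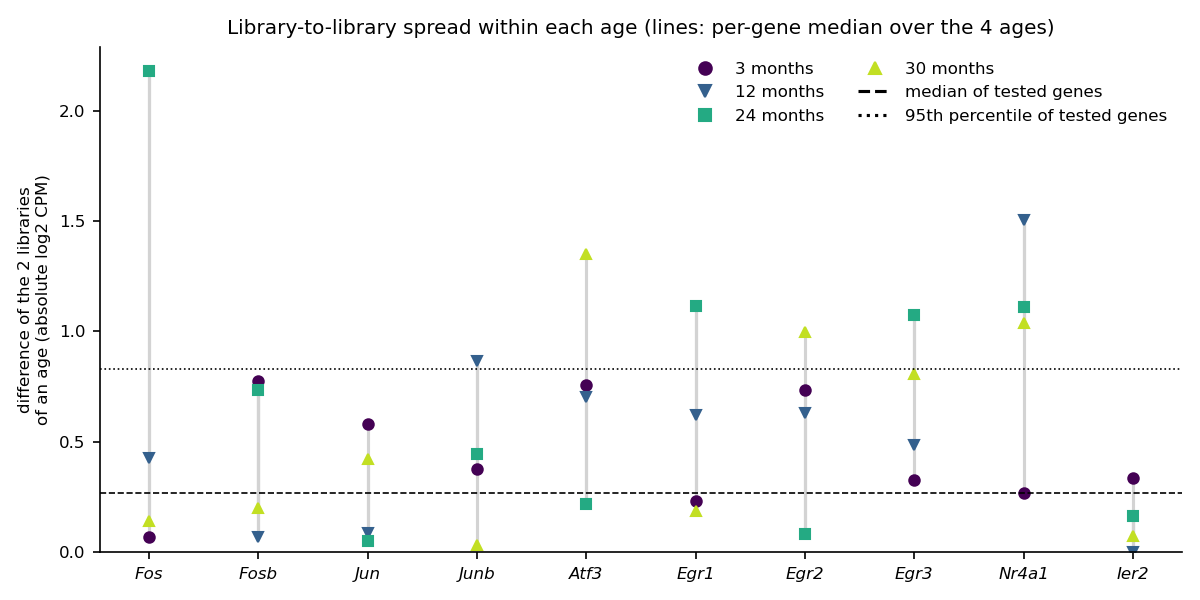
Absolute difference between the 2 libraries of an age in log2 CPM (vertical axis, starting at 0) for each member, 1 marker per age. Dashed and dotted lines give the median and the 95th percentile, over all tested genes, of the per-gene median of the 4 ages. They are therefore not percentiles for single markers. Egr1 at 24 months, at 1.11, lies above the dotted line, though its largest difference was at percentile 85.6. The marker of Fos at 24 months reaches 2.18 and 3 of the markers of Nr4a1 lie above 1, whereas all 4 of Ier2 lie at or below 0.34.

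The members did not move as 1 block over the 8 libraries. Across the 45 pairs of members the median Pearson r of log2 CPM was 0.26, and 5 pairs exceeded 0.7. These were Fosb with Egr1 (0.85), Jun with Ier2 (0.84), Fos with Egr1 (0.83), Fos with Fosb (0.78) and Egr2 with Egr3 (0.70). Without replicate 2 of 24 months the pairs of Fos with Egr1 and with Fosb were at 0.36 each and Fosb with Egr1 at 0.61, whereas Jun with Ier2 was at 0.85 and Egr2 with Egr3 at 0.93. Fos with Ier2 was then at 0.88, against 0.49 with all 8 libraries, and Jun with Junb at 0.72, against 0.66, so that 4 pairs exceeded 0.7. These values describe 8 libraries that share ages and library sets. Genes with a profile most like the mean of the members were Cmas (Pearson r 0.97, Spearman rho 0.88), Atg7 (0.97, 0.95), Kcnq5 (0.96, 0.81), Tbc1d24 (0.96, 0.88), Sertad1 (0.96, 0.95), Taf6l (0.95, 0.76), Dtnbp1 (0.95, 0.93) and Dalrd3 (0.94, 0.93), over 8 libraries and with no test. Sertad1 was at 5.71 to 8.08 CPM in the 6 later libraries, against 4.32 and 4.39 CPM at 3 months, and the low values of 3 months were shared by the member mean.

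AP-1 dimer partners outside the members gave no call in any comparison, with 13 of 13 tested. Their median log2 fold change between 30 and 3 months was 0.02, with 7 positive. Jund, the third JUN gene, was at 37.5 and 40.1 CPM at 30 months, against 32.6 and 31.2 CPM at 3 months, a log2 fold change of 0.28 (SE 0.16). Jdp2, a repressor of AP-1, was at 3.14 and 3.98 CPM at 30 months, against 5.10 and 4.60 CPM at 3 months (-0.44, SE 0.19). Maff, a small MAF protein gene, was at -0.28 (SE 0.19), and Batf, a partner of JUN in immune cells, had 9 and 13 counts at 30 months, against 2 and 2 at 3 months.

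Relatives of the EGR and NR4A members and their NAB corepressors had 4 of 6 genes tested and 0 called. Nab2, which holds back EGR factors and is itself induced by them, was at 5.69 and 6.09 CPM at 30 months, against 2.92 and 3.71 CPM at 3 months. All 6 later libraries lay above 3 months, and the log2 fold change was 0.83 (SE 0.21, quasi-likelihood adjusted p = 0.239), or 0.93 once the library set was in the model (0.0299). Nr4a2, a close relative of Nr4a1, was at 1.38 and 1.04 CPM at 3 months, then 3.21 and 5.17 at 12, 1.84 and 3.33 at 24 and 0.791 and 1.43 at 30 months. For 30 against 12 months its log2 fold change was -1.91 (SE 0.40, quasi-likelihood adjusted p = 0.417), called by DESeq2 (-1.92, adjusted p = 0.00257). Unlike Nr4a1, it was lower without kidney transcripts at 30 months, by -0.82 in log2 CPM, and higher at 12 and 24 months, by 0.68 and 0.84. Nr4a3 was at 2.74 and 3.72 CPM at 30 months, against 6.78 and 2.54 CPM at 3 months, with overlapping groups, and Nab1 at 0.03 (SE 0.16) on the log2 fold change scale.

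Of 43 tested genes among 45 other rapid response genes, 1 was called higher and 0 lower between 30 and 3 months, where 0.148% of all genes were called, and 0 in the other tests. The called gene was Plk2, a stress-responsive kinase gene, at 14.1 and 14.5 CPM at 30 months, against 7.47 and 6.67 CPM at 3 months. Its log2 fold change was 1.02 (SE 0.15, quasi-likelihood adjusted p = 0.0473). With the library set in the model 5 genes of the list were called for 30 against 3 months, and DESeq2 called 4. Higher were Plk2 and Ier5 in both fits and Ccl2, a chemokine gene, with the set (2.12, adjusted p = 0.0150). Lower were Sgk1, a glucocorticoid-induced kinase gene (-1.10, adjusted p = 0.0258), and the clock gene Per1 (-0.79, 0.0205) with the set, and Gadd45g (-1.60, adjusted p = 0.00142) and Cebpd (-1.63, 5.44e-05) by DESeq2. These calls stand against 2.13% of all genes with the set and 1.14% by DESeq2. The median of the list was 0.06 at 30 months with 22 positive, 0.22 at 24 months with 28 and 0.22 at 12 months with 31. Klf2 and Klf4, Krüppel-like factors known in endothelium, had their lowest mean at 30 months. Klf2 was at 8.17 and 11.2 CPM at 30 months, against 25.3 and 23.9 CPM at 12 months, a log2 fold change of -1.34 (SE 0.19, quasi-likelihood adjusted p = 0.201), called once the library set was in the model (0.0146) and by DESeq2 (adjusted p = 3.66e-05). Klf4 was at -0.91 (SE 0.18, 0.354) in the same comparison and called in the same 2 fits (0.0279 and 0.0216). Summed endothelial markers were at 186 to 253 CPM in the 8 libraries, with none of the 6 called, and at 186 and 253 CPM at 30 months, against 232 and 188 CPM at 12 months. Ccn2, a matricellular gene, was at 18.0 and 17.1 CPM at 24 months, against 35.8 and 31.2 CPM at 3 months (-0.93, SE 0.17, quasi-likelihood adjusted p = 0.192), and was called with the set (0.0425) and by DESeq2 (adjusted p = 0.00473). Cebpb was at -1.06 (SE 0.25) for 30 against 12 months and was called by DESeq2 (adjusted p = 0.0216).

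Upstream factors and kinases, 37 of 37 tested, had 0 called in every comparison, and at most 3 reached an unadjusted p of 0.05 in any. Their median log2 fold change was -0.01 for 30 against 3 months, with 18 positive. Srf, the factor that binds the CArG box, was at 86.6 and 60.9 CPM at 30 months, against 59.4 and 76.0 CPM at 3 months, a log2 fold change of 0.12 (SE 0.23). Camk2b, a calcium-dependent kinase gene of muscle, was at 209.8 and 121.5 CPM at 30 months, against 60.6 and 84.2 CPM at 3 months, a log2 fold change of 1.19 (SE 0.35, quasi-likelihood adjusted p = 0.334). DESeq2 called it with an adjusted p of 0.0175, and the fit with the library set at 0.79 with an adjusted p of 0.0474. Like Nr4a1, Camk2b was higher in the library without kidney transcripts at each later age, by 0.78, 0.54 and 0.79 in log2 CPM. So were Srf, by 0.48, 0.16 and 0.51, Nfatc2, by 0.25, 0.35 and 0.53, and 21.2% of all tested genes. Rps6ka5 and Nfatc2 had log2 fold changes of 0.31 (SE 0.15) and 0.53 (SE 0.22) for 30 against 3 months.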

How the data were processed

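Per the labels' protocols, RNA of flash-frozen gastrocnemius was taken up in Trizol and sequenced after a NEBNext Ultra library preparation. The authors deposited raw counts for each Ensembl gene. The submitters' processing notes list Subread 1.5.2, featureCounts, STAR 2.5.2b and Trimmomatic 0.36 and the builds mm10 and GRCm38, with no order or role. Not given in the sources used here are the annotation release, the use of strand and the treatment of multi-mapping reads. Gene symbols came from GENCODE M21 (GRCm38), which matched 49056 of 49315 identifiers, and coordinates from the deposited tables.

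In R 4.3.3, edgeR 4.0.16 kept 19571 genes by filterByExpr, scaled libraries by TMM and fitted a robust quasi-likelihood model of the 4 ages over 8 libraries, with 4 residual degrees of freedom (3 with the library set as a term). A call is a Benjamini-Hochberg adjusted p under 0.05, taken over all tested genes. Each standard error is the size of the log2 fold change over the root of its F statistic. Log2 CPM used a prior count of 2. DESeq2 1.42.0 and limma 3.58.1 (voom) were alternatives, with other scalings and filters, 2 ages alone, a replicate block, mitochondrial genes left out and each library left out. The procedure was tested on simulated counts that held no library sets, so that run does not bear on the split into sets. A library belonged to the set with kidney transcripts where its 9 kidney genes summed to over 1 CPM.

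All members are named, with, from each other list, every called gene and up to 4 with the lowest p across ages. Genes most like the members had an average log2 CPM of at least 1. The members, lists and library sets were chosen with earlier results of these data known. Promoter sequences are from RefSeq (GRCm38.p6). Intervals are 95%.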

Additional observations from a re-analysis of the deposited data

How the results depend on the processing

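The count of members called was 0 in every comparison of the reported fit and changed as follows. Leaving out the low count filter gave 1 member for 30 against 3 months, 2 for 24 against 3, 1 for 12 against 3, 1 for 24 against 12 and 2 across the ages. DESeq2 gave 1, 2 and 1 for 30, 24 and 12 months against 3 months and 2 across the ages. The library set as a term gave 2 for 30 against 3 months, 1 for 24 against 3, 1 for 30 against 12 and 2 across the ages. With only the 2 ages compared in the fit there was 1 for 30 against 3 and 1 for 24 against 3. RLE size factors, library totals alone, a filter of 1 CPM in 2 libraries, limma-voom and leaving out mitochondrial genes gave 0 throughout. The filter of 1 CPM left Fosb and Egr3 untested. Leaving out 1 library at a time gave 0 to 1 for 30 against 3 months, 0 to 2 for 24 against 3, 0 to 1 for 30 against 24 and 0 to 1 across the ages. The calls came without either library of 12 months for 30 against 3 months, where Junb passed, and without replicate 1 of 24 months otherwise. The cause of these changes was not tested.

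With the replicate number as a block, 0 members were called in all 7 tests, and Junb had a quasi-likelihood adjusted p of 0.0897 for 30 against 3 months. Differences of replicate 1 minus 2 correlated across genes at -0.36 to 0.26 between ages. Kidney transcripts were in replicate 1 at 12 and 24 months and in replicate 2 at 30 months. These correlations therefore cannot tell whether the numbers pair the libraries. Directions turned for Fos at 30 against 3 months with the library set (-0.13), for Atf3 with limma-voom (-0.054) and over a range of -0.82 to 0.54 without 1 library, and for Nr4a1 over -0.74 to 0.31. Library totals alone moved the median of all genes by 0.13 on the log2 scale for 30 against 24 months and by at most 0.10 in size otherwise, and gave Ier2 0.10 for 30 against 24 months and Junb -0.04 for 24 against 12 months, against -0.03 and 0.03 as reported. The median log2 fold change of the members with library totals was 0.27 (24 against 3 months) and 0.13 (30 against 24). With a filter of 1 CPM, which removed Fosb and Egr3, the median of the remaining members was -0.27 (30 against 12). Over all genes, calls for 30 against 3 months numbered 29 in the reported fit and 10 to 416 under the alternatives. Fosb, Egr3 and Egr2 are limited by counts, at most 39, 20 and 93 per library.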

Other observations

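The list of heat shock and other stress genes held 9 genes, all tested, with 0 called in any comparison by the quasi-likelihood test and 1, 1 and 3 at an unadjusted p under 0.05 for 30, 24 and 12 months against 3 months. Hspa1a, an inducible chaperone gene with a near-identical neighbour, Hspa1b, so that its counts are uncertain, was at 5.16 and 3.76 CPM at 3 months, then 16.3 and 6.18 at 12, 5.17 and 3.88 at 24 and 4.90 and 10.4 at 30 months. Its highest libraries, replicate 1 of 12 months and replicate 2 of 30 months, were also the highest for Atf3, at 9.77 and 8.42 CPM, whereas replicate 2 of 24 months, the highest for Fos, Fosb and Egr1, had 3.88 CPM of Hspa1a. Dnajb1, a co-chaperone gene, was at 21.9 CPM in replicate 1 of 12 months and at 6.50 to 12.1 CPM in the other 7 libraries. Hsph1, a chaperone of the HSP110 family, was at 36.2 to 69.3 CPM, highest in the same library. Mt2, a metallothionein gene, was highest in replicate 2 of 30 months, at 11.4 CPM, with the others between 1.93 and 4.63 CPM, and was called for 30 against 3 months in the model that held the library set (log2 fold change 1.50, SE 0.23, quasi-likelihood adjusted p = 0.00938), as was Hspa1a (1.18, SE 0.25, 0.0434). DESeq2 called neither for that comparison.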
